A study of Mus musculus with 29 samples.

Results

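The cytosolic ribosome fractions of differentiating C2C12 cells, an established line of mouse myoblasts that forms muscle fibres in culture, were compared: 2 polysome libraries against 2 monosome libraries. They are 4 of the 26 3′-end libraries in a series of 29 samples, and were chosen by their labels alone. In each library the reads at the poly(A) site of each transcript were counted by 3′READS+, a method that sequences the 3′ end next to the poly(A) tail. Counts were summed over all sites of a gene, and the use of proximal and distal sites within a gene was then compared. The polysome libraries are labelled as differentiating cells in medium with 2% horse serum. The monosome libraries are also labelled as differentiating, but their medium is given as 10% fetal bovine serum, so a difference in medium, if real, and the gradient part cannot be told apart. The membrane fraction of differentiating cells, with the same pair of media labels, and the cytosol of proliferating cells, in 10% fetal bovine serum, each with 2 polysome and 2 monosome libraries, served for comparison. The cells of all groups are of this 1 line, and nothing in the labels tells whether the 2 libraries of a group stem from different cultures. The p-values therefore reflect no more than the variation among the libraries, which could be technical.

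An mRNA that carries many ribosomes at once sediments as a polysome, whereas an mRNA with a single ribosome sediments as a monosome. A higher polysome to monosome ratio of a transcript is commonly read as more ribosomes per mRNA, although the length of the coding region also limits how many can load. Messages of ribosomal proteins and several translation factors begin with a tract of pyrimidines, the 5′ terminal oligopyrimidine (TOP) motif, through which they are known to move out of polysomes when growth signalling through mTOR is low. Messages of secreted and membrane proteins are translated at the endoplasmic reticulum (ER), so the cytosol holds the copies that are not anchored there.

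For reference, the start regions of genes that recur in the results are shown with every base of a pyrimidine tract in capitals, as 30 bases from RefSeq on GRCm38.p6, written along the transcript. A tract was counted where a C followed by at least 7 further C or T began within 20 bases of the annotated start, on the gene's strand. The first 5 belong to proteins of the ribosome or of initiation, with Gnb2l1 being the older symbol of Rack1. Snhg12 is a snoRNA host, and Rab6a, Mtpn and Ppp2ca are among the transcripts with the largest rises in polysomes. All but Rab6a, Mtpn and Ppp2ca were picked from list members that have a tract, so their tracts were fixed by the choice. Rab6a, Mtpn and Ppp2ca were picked without regard to a tract. For every gene, an annotated start with a tract was shown where there was one, so the sequences do not compare the groups.
Rpl14 (chr9:120571505-120571534, plus strand): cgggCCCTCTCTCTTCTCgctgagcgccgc
Rpl27a (chr7:109519184-109519213, plus strand): tcgtgagCTCCTCCCTTTTCCCTTTCTgcc
Rpl13a (chr7:45128724-45128753, minus strand): tgcgacaagaCCTCCTCCTTTCCCaggcgg
Gnb2l1 (chr11:48800350-48800379, plus strand): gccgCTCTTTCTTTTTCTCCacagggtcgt
Eif3l (chr15:79075217-79075246, plus strand): tCTTCTTCCgCTCTCTCCCacgggcttctg
Snhg12 (chr4:132308666-132308695, plus strand): cgttctcagtCCTTTCTCgcttcatccgcg
Rab6a (chr7:100607565-100607594, plus strand): tcggtcccgCCTCCTCCCggcttctccaga
Mtpn (chr6:35539869-35539898, minus strand): gggcggggtcccgagcagagctttctggag
Ppp2ca (chr11:52098814-52098843, plus strand): ggcggccgccattacagaaagccgagtccc
Such a tract stood in 14.5% of all 32851 start regions in the table and in 18.0% of the 8951 tested genes that could be matched, against 19.9% on their other strand. The tested genes with a tract had a median log2 ratio of 0.02 and those without one 0.08. Only 58 of the 74 tested ribosomal protein genes were matched, under the minimum of 80% set for giving a list's share, so that check is void.

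The 4 libraries held 5852564 and 5907773 reads for polysomes and 3858889 and 2987706 for monosomes, and 11176 of 15551 genes with a read passed the filter on low counts. Levels are in CPM, the counts of a gene relative to its library's total after edgeR's TMM scaling. Of 21 symbols listed for muscle markers, 20 were in the table. They summed to 110000 and 14443 CPM in polysomes and 48660 and 8279 CPM in monosomes, against 219 to 368 CPM in proliferating cytosol. The markers of the 2 libraries numbered 1 thus stood far above those numbered 2 in both gradient parts. The summed markers of proliferating myoblasts ran the other way, at 233 and 535 CPM in polysomes and 176 and 392 CPM in monosomes, with Pax7 at 0 in all 4. Id3 made up most of that gap, with 12.8 and 198 CPM in polysomes and 9.51 and 143 CPM in monosomes. Most other members ran the same way, but Id1 and Top2a in monosomes and Plk1 in polysomes did not. Those of adipocytes, macrophages and endothelial cells summed to at most 2.38 CPM. Those of osteoblasts and chondrocytes summed to 10.0 and 26.6 CPM in polysomes and 13.9 and 14.1 CPM in monosomes, all of it Runx2 and Sox9, with Sp7 and Col2a1 at 0, and nearly the whole nerve sum was Tubb3. Libraries of the same number deviated together, and results are given from a fit without the numbers (unpaired) and, where the call differs, also from one with the number as a block (paired).

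Of 11176 genes tested, 1409 (12.6%) were higher in polysomes than in monosomes and 1264 (11.3%) were lower, by edgeR's quasi-likelihood test at a Benjamini-Hochberg adjusted p under 0.05. The paired fit called 2759 higher (24.7%) and 2383 lower (21.3%), together 46.0% of all genes, and 2671 genes were called in both fits. The ratio had the same sign in both numbered pairs for 8528 of the 11176 genes. It also did so for 2670 of the 2673 called in the unpaired fit, but a call from these same libraries favours a shared sign. Across genes, which are not independent replicates, the ratios of the 2 pairs correlated with r = 0.73. Leaving out polysome library 1 or 2 left 1493 or 1650 calls, and leaving out monosome library 1 or 2 left 1574 or 1776. Of the 86 gene values named here as called, 22, 13, 12 and 18 no longer passed without these libraries in turn. Scaling shifts all genes together: the median log2 ratio was 0.07 with TMM scaling, -0.10 with DESeq2 size factors and 0.38 with library totals, and the share of calls that were higher was 52.7%, 42.2% and 69.6%.

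The largest rises included regulators of signalling, traffic and the cytoskeleton. Rab6a, a GTPase of Golgi traffic, had 199 and 191 CPM in polysomes and 15.0 and 15.4 CPM in monosomes, a log2 difference of 3.68 (SE 0.31, edgeR adjusted p = 9.13e-05). Mtpn, which encodes the actin-capping regulator myotrophin, had 1998 and 1721 CPM against 176 and 161 CPM (3.46, SE 0.34). In both genes the libraries of a group lay close together. A large change and groups without overlap were conditions for naming them. Of all genes, 31.7% had both polysome values above both monosome values. Also among the largest were Cab39 (3.64), a scaffold of the kinase LKB1, Raly (3.49), an RNA-binding protein, and Ndrg1 (3.37). Cotl1 (3.32) encodes an actin-binding protein. Ppp2ca, the catalytic subunit of phosphatase 2A, rose by 3.28 with 164 and 379.6 CPM against 22.1 and 34.1 CPM.

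**Figure D1:**
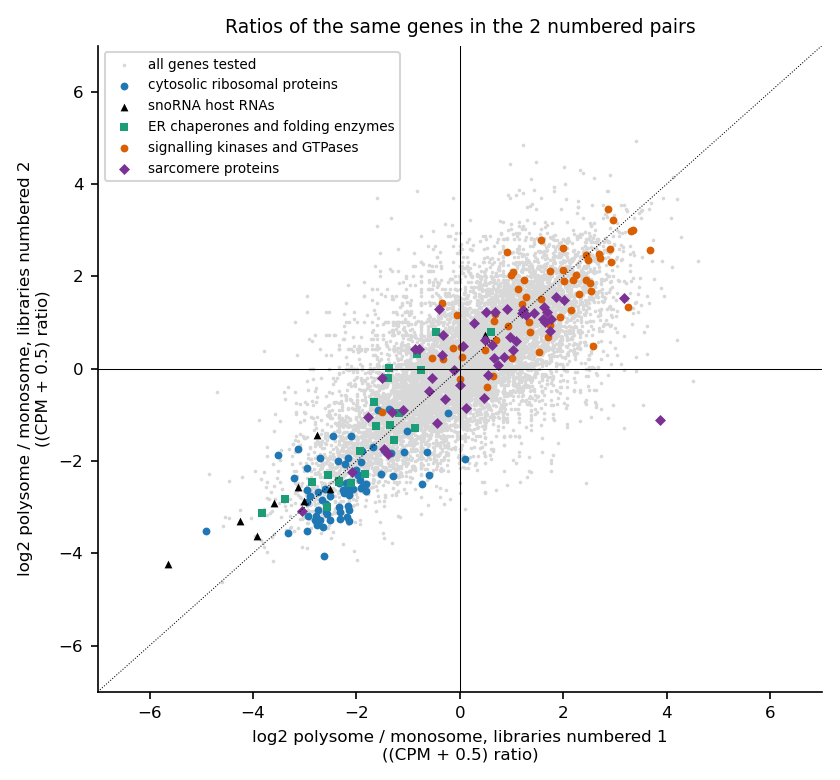
Log2 polysome to monosome ratio of each of the 11176 genes tested, in the libraries numbered 1 (x axis) and 2 (y axis), with 0.5 CPM added to each value and 5 gene lists coloured. Ribosomal proteins, snoRNA hosts and ER chaperones lie mostly in the lower left, signalling genes in the upper right, and sarcomere genes on both sides of 0.

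Ribosomal protein messages were low in polysomes throughout. All 74 tested of 83 listed had a ratio below 0, 63 were lower and 0 higher, and the median log2 was -2.45 (range -4.61 to -0.69), against 0.07 for all genes. The paired fit called 71 lower. Summed over the list, their level was 51939 and 60213 CPM in polysomes and 225173 and 343101 CPM in monosomes. Rplp0, a protein of the ribosomal stalk, had 119 and 151 CPM in polysomes and 1197 and 1787 CPM in monosomes (-3.47, SE 0.37, edgeR adjusted p = 0.000256). Rps20 of the small subunit had 4496 and 8232 CPM against 30652 and 83554 CPM (-3.17, SE 0.70). Rps15 had 14378 and 23412 CPM against 56368 and 115166 CPM (-2.18, SE 0.65). Among those with a tract shown above, Rpl13a differed by -2.84, Rpl14 by -2.15 and Rpl27a by -1.63. The ratio closest to 0 was that of Rpl36al (-0.69, edgeR adjusted p = 0.253; 0.0414 paired), chosen here for its value. Processed copies of many ribosomal protein genes are almost identical to them, so their levels are uncertain.

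The other messages listed as TOP-type lay on the same side. Of 21 tested, 15 were lower and 0 higher, all 21 lay below 0, and the median was -2.04. The paired fit called 17 lower. Eef2, the elongation factor that moves the ribosome along the mRNA, had 2356 and 2965 CPM in polysomes and 14886 and 24789.7 CPM in monosomes (-2.90, SE 0.46, edgeR adjusted p = 0.000886). Eif3f, a subunit of initiation factor eIF3, had 141 and 244 CPM against 1705 and 2954 CPM (-3.60, SE 0.45). Tpt1, the translationally controlled tumour protein, had 31.9 and 32.9 CPM against 297 and 383 CPM (-3.39, SE 0.48). Gnb2l1, the ribosome-bound scaffold RACK1, differed by -2.99 and Eif3l by -2.04.

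Most tested RNAs with little or no coding role were also low in polysomes. Of 20 snoRNA host genes listed, 9 were tested, 8 were lower and 0 higher in either fit, and their median was -3.26. These genes carry small nucleolar RNAs in their introns, and their spliced RNAs are mostly without a long reading frame. Snhg6 had 7.63 and 35.3 CPM in polysomes and 409 and 677 CPM in monosomes (-4.65, SE 0.84, edgeR adjusted p = 0.00208). Snhg8 had 44.3 and 45.6 CPM against 678 and 567 CPM (-3.79, SE 0.35). Snhg12 differed by -3.26 and Snhg1 by -2.81. The member not called, Snhg9, had a ratio above 0 (3.68) at no more than 0.333 CPM in any library of differentiating cytosol. The imprinted RNA H19, which is abundant in embryonic muscle, had 1656 and 994 CPM against 21991 and 15598 CPM (-3.83, SE 0.82). Of 5 nuclear noncoding RNAs tested, Malat1 was lower (-2.51, SE 0.72, edgeR adjusted p = 0.0229) and 0 were higher. Malat1 had under 3 CPM in each library of differentiating cytosol. The paired fit called 3 lower, with Neat1 (-1.65, edgeR adjusted p = 0.257; 0.000972 paired) and Xist (-1.32, edgeR adjusted p = 0.0594; 0.00886 paired) besides, both named for this count. Their levels were low: Neat1 had 1.40 and 3.33 CPM in polysomes against 5.44 and 9.99 CPM in monosomes. Xist had 5.02 and 2.83 CPM against 11.2 and 8.17 CPM. Tug1 lay above 0 (0.52), with groups that overlapped, and was called in neither fit.

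Initiation factors outside the TOP list did not share that direction. Of 38 tested, 10 were higher and 2 lower, with a median of 0.30 (14 and 4 paired). Eif1a, which promotes scanning for the start codon, had 198 and 125 CPM in polysomes and 19.7 and 15.0 CPM in monosomes (3.22, SE 0.43, edgeR adjusted p = 0.000378). Eif6, an anti-association factor of the large subunit, rose by 2.47, and Eif4g2, Eif3b and Eif5a were also among the 10. Eif4a2, an RNA helicase of the cap complex, went the other way, with 10.4 and 11.6 CPM against 58.1 and 82.2 CPM (-2.66, SE 0.35). Proteins of the mitochondrial ribosome, whose messages are also made in the nucleus and translated in the cytosol, had a median near that of all genes. Of 73 tested, 7 were higher and 5 lower (18 and 21 paired), and the median of 0.09 was -0.09 under DESeq2 size factors. Mrpl28 had 1438 and 1712 CPM against 332 and 376 CPM (2.15, SE 0.47). Among 77 respiratory chain subunits, 5 were higher and 7 lower (14 and 19 paired), and the median of 0.10 was -0.08 under DESeq2 size factors. Atp5g3, a ring subunit of the ATP synthase, rose by 2.74 (SE 0.31, edgeR adjusted p = 0.000275). Cox7a2l, an assembly factor of respiratory complexes, had 2510.1 and 1153 CPM against 10132 and 8346 CPM (-2.33, SE 0.53).

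Messages of signalling proteins stood highest of the lists. Of 56 tested kinases, phosphatases, GTPases and adaptors, 31 were higher and 1, Araf (-1.22), was lower, and the median log2 was 1.61 (41 and 1 paired). Rhob, a GTPase of the actin cytoskeleton, had 685 and 637 CPM in polysomes and 88.0 and 67.6 CPM in monosomes (3.08, SE 0.35, edgeR adjusted p = 0.000275). The 14-3-3 adaptors Ywhab (3.24), Ywhag (3.12), Ywhaz (2.14) and Ywhaq (2.09) all rose. Ywhaz had 2709.8 and 3058 CPM against 499 and 812 CPM. Rraga, a GTPase that signals amino acids to mTOR, rose by 3.33, and Prkar1a, a regulatory subunit of protein kinase A, by 2.04.

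**Figure D2:**
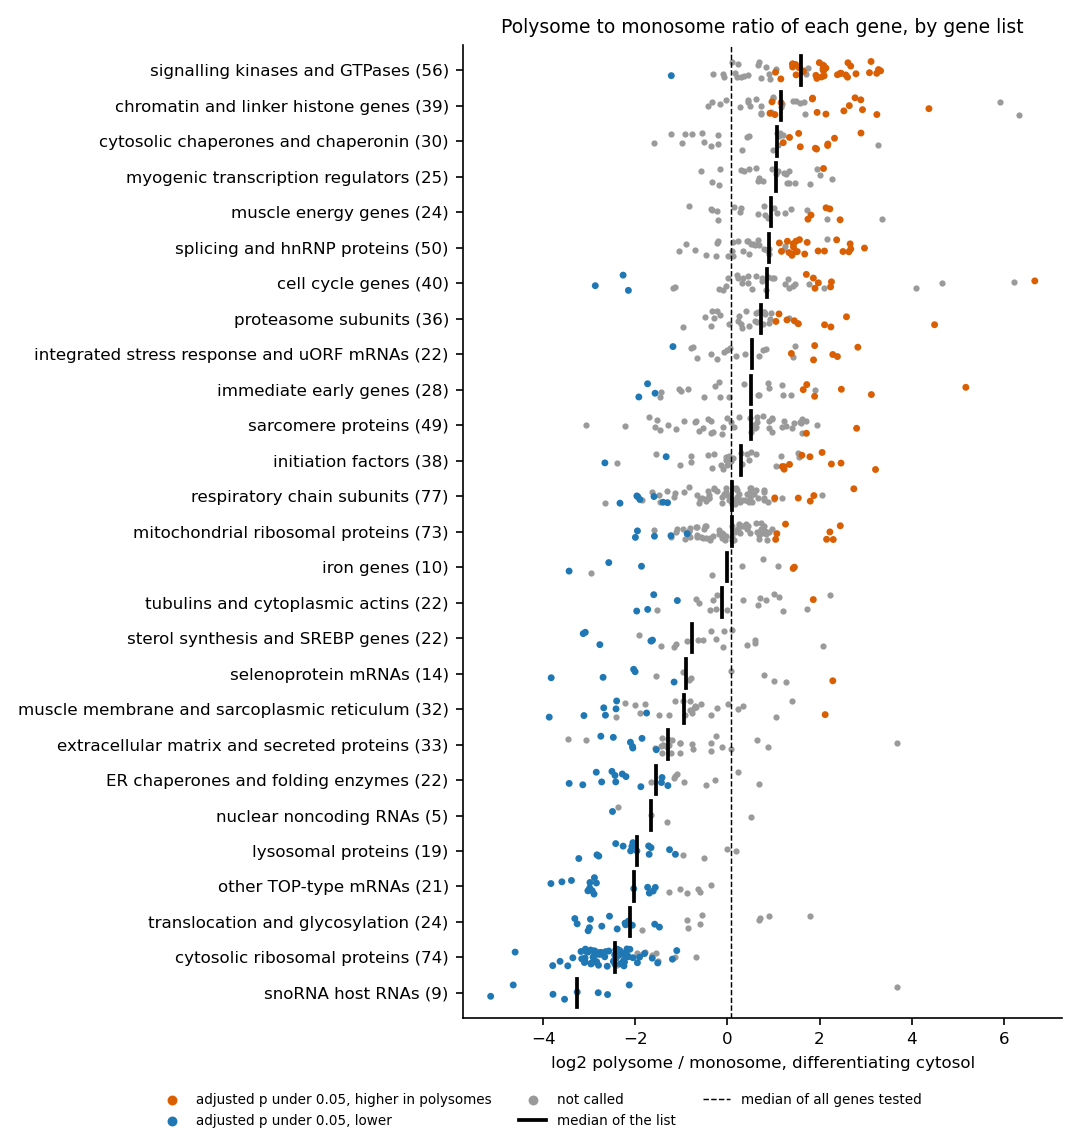
Log2 polysome to monosome ratio of each tested gene in 27 gene lists, 1 point per gene, with the number tested in brackets, list medians as black bars and the median of all genes as a dashed line. Lists run from snoRNA hosts (median -3.26) to signalling genes (median 1.61), and called genes of 1 list mostly share a direction.

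In the lists of splicing and chromatin genes, the unpaired calls were all toward polysomes. For splicing factors and hnRNP proteins, 21 of 50 were higher and 0 lower (median 0.90; 27 and 2 paired). Srsf2, a serine-rich splicing factor, had 1219 and 1071 CPM in polysomes and 217 and 140.3 CPM in monosomes (2.68, SE 0.32, edgeR adjusted p = 0.000292). Hnrnpab rose by 2.98 and Hnrnpa2b1 by 2.66. For chromatin genes, 15 of 39 were higher and 0 lower (median 1.17; 28 and 0 paired). H1fx, a linker histone, had 73.0 and 105 CPM against 8.84 and 9.99 CPM (3.24, SE 0.42). H3f3a, which encodes the replacement histone H3.3, rose by 1.85.

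Among genes of protein folding and degradation in the cytosol, the unpaired calls were likewise all toward polysomes, although most members did not pass. Of 30 cytosolic chaperones and chaperonin subunits, 10 were higher and 0 lower (median 1.09; 16 and 5 paired). Hspb8, a small heat shock protein of muscle, had 945 and 369 CPM in polysomes and 119 and 56.3 CPM in monosomes (2.90, SE 0.59, edgeR adjusted p = 0.00375). Fkbp4, a partner of HSP90, rose by 2.33. Cct5, a chaperonin subunit, lay on the other side at -1.22, with an edgeR adjusted p of 0.0507 (0.00593 paired). Of 36 proteasome subunits, 9 were higher and 0 lower (median 0.72; 18 and 1 paired). Psma6 of the core had 4275 and 4120.0 CPM against 1272 and 1795 CPM (1.45, SE 0.39), and Psmd3 of the lid rose by 2.25.

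Lists linked to stress, early response and growth held calls in both directions. So did all genes tested, with 12.6% higher and 11.3% lower unpaired, and 24.7% and 21.3% paired. Of 22 messages of the integrated stress response or with upstream reading frames, 6 were higher and 1 lower (median 0.53; 9 and 4 paired). Azin1, which protects ornithine decarboxylase from degradation, had 168 and 195 CPM in polysomes and 22.4 and 28.6 CPM in monosomes (2.83, SE 0.33, edgeR adjusted p = 0.000275). Atf4, the central transcription factor of that response, had 1534 and 1289.8 CPM against 1542 and 933 CPM (0.19, edgeR adjusted p = 0.729), and the groups overlapped. Of 28 immediate early genes, 6 were higher and 3 lower (median 0.51; 11 and 6 paired). Dusp1, a MAP kinase phosphatase, rose by 1.89 and Fosl2 by 1.72. Zfp36, which destabilises mRNAs with AU-rich elements, was lower (-1.74, edgeR adjusted p = 0.0262), and Ier3 differed by -1.57. Of 40 cell cycle genes, 7 were higher and 3 lower (median 0.85; 21 and 5 paired). Cdkn1a, the inhibitor p21 that is induced as myoblasts leave the cycle, had 3254 and 1092 CPM against 711 and 208 CPM (2.24, SE 0.68, edgeR adjusted p = 0.0300). E2f1, a transcription factor of S phase entry, had 35.9 and 63.7 CPM against 193 and 287 CPM (-2.27, SE 0.52). Ccnl1, a cyclin of splicing and transcription kinases, differed by -2.87.

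For the contractile apparatus the unpaired and paired fits gave different counts. Of 58 sarcomere genes listed, 49 were tested, and 2 were higher and 0 lower unpaired against 18 higher and 8 lower paired (median 0.51). The 2 are Trim54, a ubiquitin ligase of the sarcomere, with 155 and 27.0 CPM in polysomes and 16.7 and 9.08 CPM in monosomes (2.81, SE 0.77, edgeR adjusted p = 0.0186), and Pdlim3 (1.71, SE 0.56), a protein of the Z-disc. Tnnc1, the slow troponin C, had 46760.1 and 5285 CPM against 19198 and 2364 CPM (1.27, SE 1.15, edgeR adjusted p = 0.459; 4.00e-05 paired). The first library of each group stood further above the second than the gradient parts stood apart, and within each pair the polysome value was the higher. In bulk libraries such as these, fewer muscle cells and less muscle RNA per cell cannot be told apart. Mylpf, the fast regulatory light chain, had 30683 and 5372 CPM against 11364 and 2347 CPM (1.39, edgeR adjusted p = 0.367; 4.64e-05 paired). Tnni1, the slow troponin I, had 2009 and 267 CPM against 497 and 94.9 CPM (1.94, edgeR adjusted p = 0.260; 5.46e-08 paired). Acta1, skeletal actin, had 8041 and 929 CPM against 7410.1 and 1689 CPM (-0.02, edgeR adjusted p = 0.995; 0.446 paired), with pair values of opposite sign. Without polysome library 1 the unpaired values of Tnnc1, Mylpf and Tnni1 were -1.02, -0.34 and -0.14, and none of the 3 passed the test there either.

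The 8 sarcomere genes lower in the paired fit include filament proteins with very long coding regions. They are Myh1, Myh3 and Myh7, which are myosin heavy chains, the giant proteins Ttn and Neb, and Myom1, Actn3 and Myoz2. Myh3, the embryonic heavy chain, had 252 and 41.3 CPM in polysomes and 663 and 150.3 CPM in monosomes (-1.47, edgeR adjusted p = 0.302; 1.61e-06 paired). Ttn, which encodes titin, had 50.0 and 9.15 CPM against 172 and 19.5 CPM (-1.71, edgeR adjusted p = 0.330; 8.42e-06 paired). Neb, which encodes nebulin, had 10.8 and 1.83 CPM against 47.9 and 10.4 CPM (-2.23, edgeR adjusted p = 0.118; 1.27e-05 paired). Myoz2, a small Z-disc protein, had 153 and 20.8 CPM against 1272 and 179.8 CPM (-3.07, edgeR adjusted p = 0.0829; 7.55e-14 paired). The 18 higher in the paired fit hold troponins, tropomyosins, myosin light chains and cardiac actin, and except for Myoz2 the named lower genes encode large structural proteins. This grouping was made after the values were seen, and coding lengths were not used here.

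**Figure D3:**
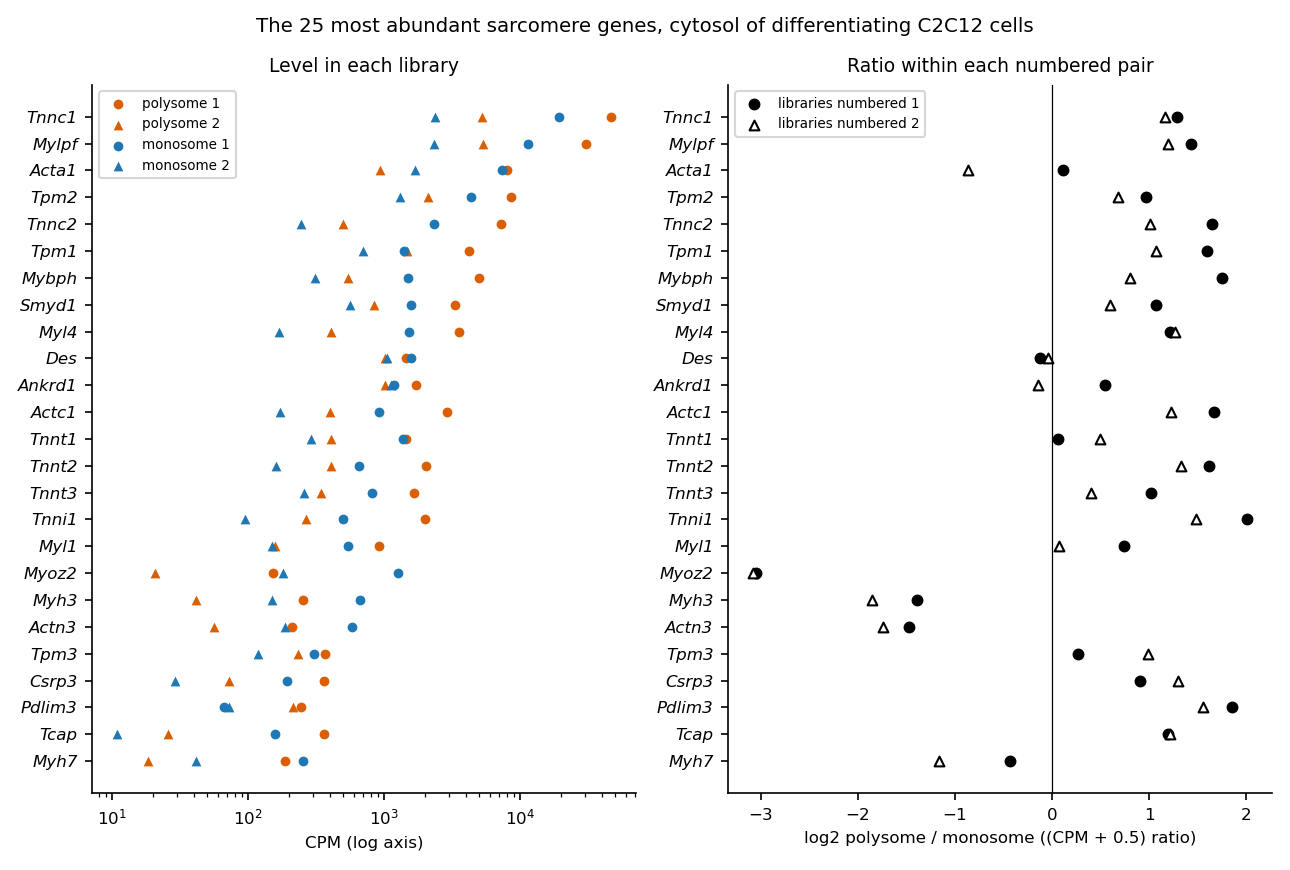
Level in CPM of the 25 sarcomere genes with the highest mean in each of the 4 libraries (left, log axis), and log2 polysome to monosome ratio within each numbered pair (right, 0.5 CPM added). The libraries numbered 1 stand above those numbered 2 for nearly all genes, and the 2 ratios of a gene lie near each other for most.

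Few regulators of the muscle programme passed the unpaired test. Of 25 myogenic transcription regulators tested, 1 was higher, a smaller share than the 12.6% of all genes, and 0 lower (median 1.05; 13 and 0 paired, where 24.7% of all genes were higher). Myod1, the determination factor, had 47.6 and 22.5 CPM in polysomes and 15.0 and 9.99 CPM in monosomes (1.48, edgeR adjusted p = 0.143; 0.000155 paired). Myog, which switches on differentiation, had 414 and 94.0 CPM against 659 and 94.0 CPM (-0.57, edgeR adjusted p = 0.738; 0.238 paired), and its groups overlapped. Of 24 muscle energy genes, 5 were higher and 0 lower (median 0.94; 14 and 1 paired). Ldha, a lactate dehydrogenase subunit, had 6322 and 1469.5 CPM against 970.5 and 458 CPM (2.45, SE 0.66, edgeR adjusted p = 0.0166). Pfkl, a phosphofructokinase of glycolysis, rose by 1.75 and Gys1, muscle glycogen synthase, by 2.14, while Aldoa, an aldolase, had 36414 and 21647 CPM against 27737 and 19761 CPM (0.29, edgeR adjusted p = 0.590).

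Messages of proteins made at the ER were low in the polysomes of the cytosol. Of 24 genes of translocation and glycosylation, 15 were lower and 0 higher (median -2.11; 19 and 1 paired). Rpn1, a subunit of the oligosaccharyltransferase, had 11.6 and 11.6 CPM in polysomes and 124 and 100.3 CPM in monosomes (-3.26, SE 0.36, edgeR adjusted p = 0.000258). Of 22 ER chaperones and folding enzymes, 13 were lower and 0 higher (median -1.54; 16 and 1 paired). Manf, a stress-induced ER protein, had 65.4 and 107 CPM against 937 and 933 CPM (-3.44, SE 0.38). Of 19 lysosomal genes, 15 were lower and 0 higher (median -1.97; 16 and 0 paired). Npc2, a lysosomal sterol carrier, had 612 and 1251 CPM against 4141 and 8793 CPM (-2.79, SE 0.61), and Ctsd, a protease, differed by -2.83. Of 33 matrix and secreted proteins, 7 were lower and 0 higher (median -1.29; 22 and 1 paired), among them Fn1, which encodes fibronectin (-2.48), and Bgn, a proteoglycan (-2.06).

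Most called genes of muscle proteins of the surface membrane and of the sarcoplasmic reticulum were low in polysomes. Of 32 tested, 7 were lower and 1, Jph2, was higher (median -0.95; 20 and 2 paired). Sgcb, a sarcoglycan of the dystrophin complex, had 5.82 and 6.65 CPM in polysomes and 90.4 and 93.1 CPM in monosomes (-3.87, SE 0.37, edgeR adjusted p = 0.000195). Chrna1, a subunit of the acetylcholine receptor, had 88.1 and 80.9 CPM against 649.6 and 411 CPM (-2.65, SE 0.39). Cdh15, the M-cadherin of muscle precursors, differed by -2.41. The 2 groups of each of these genes lay well apart, which their choice by the lowest p of the list favours. Jph2 encodes junctophilin, which is held at the membrane by a tail at its end and has no signal sequence at its start, and it rose by 2.12. Whether such features bear on the ratio was not tested for any member of the list.

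Among the remaining lists, the unpaired calls of sterol genes were all lower, and the others held calls in both directions. Of all genes, 12.6% were higher and 11.3% lower. Of 22 sterol genes, 5 were lower and 0 higher (median -0.76; 11 and 1 paired), with Insig2, an ER membrane protein, at -3.13. Of 14 selenoproteins, 5 were lower and 1 higher (median -0.90; 8 and 3 paired). Sepw1, a short selenoprotein of muscle, had 799 and 758 CPM in polysomes and 11086 and 11041 CPM in monosomes (-3.83, SE 0.30, edgeR adjusted p = 8.41e-05), while Txnrd1, a thioredoxin reductase, rose by 2.29. Of 10 iron genes, 2 were higher and 3 lower (median -0.00, and 0.32 with library totals; 4 and 4 paired). Fth1, the ferritin heavy chain, had 1218 and 1285 CPM against 7310.5 and 7635 CPM (-2.58, SE 0.34, edgeR adjusted p = 0.000363). Of 22 tubulin, actin and actin-binding genes, 1 was higher and 4 lower (median -0.11, and 0.21 with library totals; 8 and 7 paired). Tmsb4x, which binds free actin, differed by -1.97, and Cfl1, which severs actin filaments, rose by 1.86.

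The question of the 2 states, differentiating and proliferating, was whether the cytosolic ratio of a gene differed between them. The unpaired test called 0 of 11176 genes by edgeR and 0 by DESeq2, with 367 and 346 at an unadjusted p under 0.05. The paired fit called 70 genes, 20 with a higher ratio in differentiating cells (0.179%) and 50 with a lower one (0.447%). Of the lower ones, 9 were ribosomal proteins, 4 other TOP-type messages, 4 splicing genes and 4 of the tubulin and actin list. The list medians for ribosomal proteins were -2.45 in differentiating and -1.43 in proliferating cytosol, and for tubulins and actins -0.11 and 1.16. Tubb5, a beta tubulin, had 4498 and 3825 CPM in polysomes and 6188 and 11513 CPM in monosomes of differentiating cytosol. Its log2 ratio was -1.09 there and 0.90 in proliferating cells, a difference of -1.99 with an edgeR adjusted p of 1.00 (0.00783 paired). Npm1, a nucleolar chaperone, had ratios of -1.03 (edgeR adjusted p = 0.0960; 0.00244 paired) and 1.00 and a difference of -2.04 (0.00382 paired). Rps27a, a ubiquitin fusion of the small subunit, had ratios of -2.65 and -0.97 and a difference of -1.67 (0.00783 paired).

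Among the genes with the lowest unpaired p for a higher ratio in differentiating cells was Slc27a1, a fatty acid transporter, at 2.13 in differentiating and 0.28 in proliferating cytosol (difference 1.86; edgeR adjusted p = 1.00, 0.0246 paired). B4galnt1, an enzyme of ganglioside synthesis, had ratios of 1.43 and -0.30 (difference 1.72; 0.0253 paired). Chosen from the paired fit after the values were seen, Tnnc1 had ratios of 1.27 and -0.83, with a paired difference of 2.06 (edgeR adjusted p = 0.00172). Tecpr2, a gene of autophagy, had 21.3 and 8.65 CPM in polysomes and 267 and 165 CPM in monosomes and ratios of -3.86 and -1.63, with a paired difference of -2.27 (edgeR adjusted p = 0.000331). In differentiating cells these comparisons set libraries of 2 media labels against each other, and in proliferating cells libraries of 1.

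The ratio of many genes differed between the cytosol and the membrane fraction of differentiating cells. Membrane minus cytosol was higher for 406 genes (3.63%) and lower for 52 (0.465%), together 4.1% of all, and in the paired fit for 1405 (12.6%) and 721 (6.45%). Of 22 ER chaperones 14 were higher, of 24 translocation genes 14 and of 19 lysosomal genes 10, with 0 lower in each. The paired counts were 18, 18 and 17. For muscle membrane and sarcoplasmic reticulum genes the count was 4 of 32, and 20 paired. List medians turned from -1.54 in the cytosol to 1.19 in the membrane for ER chaperones, from -2.11 to 0.93 for translocation and from -0.95 to 0.67 for muscle membrane genes. Sgcb had a log2 ratio of -3.87 in the cytosol and 1.25 in the membrane fraction (difference 5.13, SE 0.49, edgeR adjusted p = 0.000769). Lrpap1, a chaperone of lipoprotein receptors, had -3.73 and 1.45 (difference 5.18, SE 0.59), and Bsg, the membrane glycoprotein basigin, had -3.07 and 1.72 (difference 4.79, SE 0.84). The difference was lower for Rraga with 3.33 and 0.63 (difference -2.70), Ywhab with 3.24 and 1.01 (-2.23) and Rab6a with 3.68 and 1.56 (-2.12). Ribosomal proteins had a median of -2.07 in the membrane fraction too, with 0 of 74 called for a difference (5 higher paired), and snoRNA hosts had -2.90. The calls of Rraga and Ywhab did not hold in every fit with 1 library left out, their adjusted p reaching 0.0645 and 0.167. Leaving out 1 of the 8 libraries left 184 calls (without cytosol polysome library 1) to 317 (without cytosol monosome library 2).

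**Figure D4:**
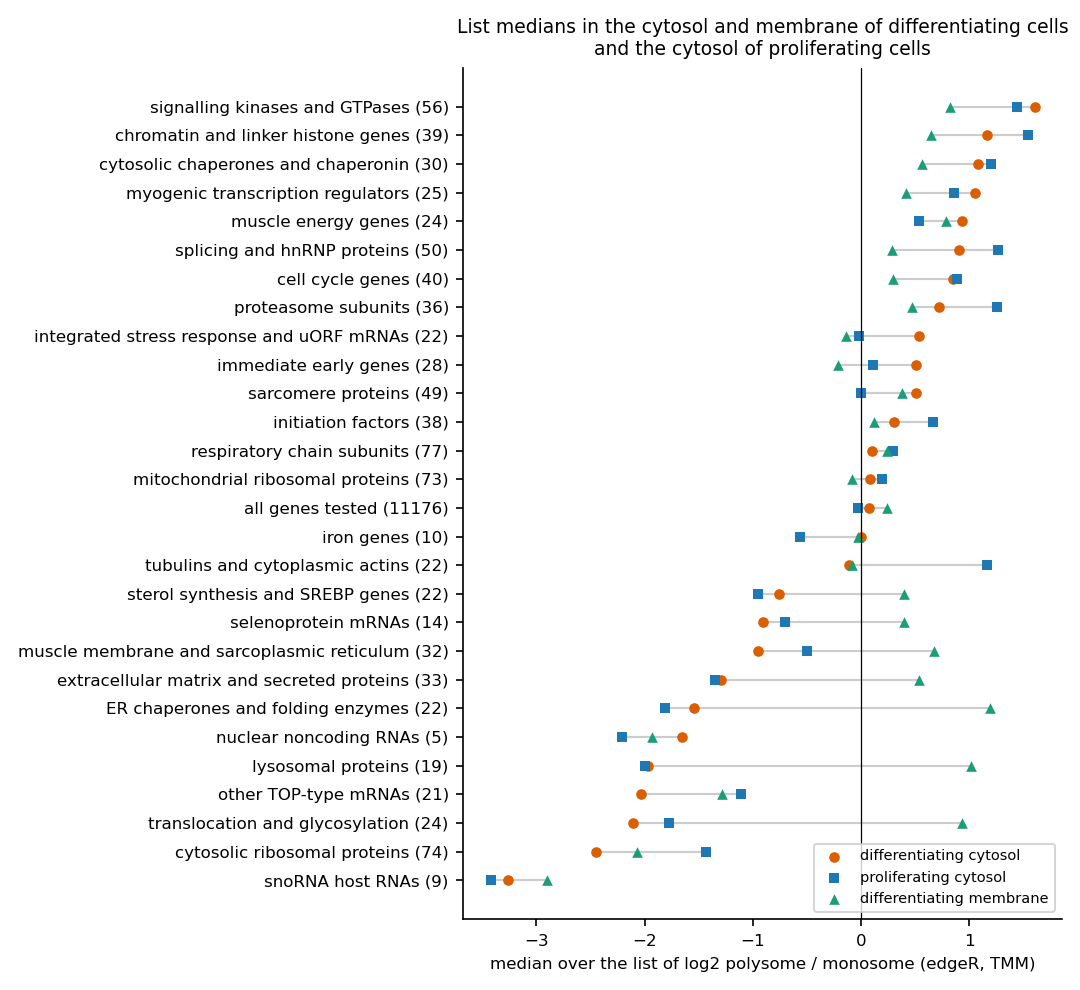
Median log2 polysome to monosome ratio of each list in the cytosol of differentiating cells, the cytosol of proliferating cells and the membrane fraction of differentiating cells. ER chaperones, translocation, lysosomal and muscle membrane genes lie below 0 in both cytosols and above 0 in the membrane fraction, and ribosomal proteins and snoRNA hosts lie below 0 in all 3.

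For site use, the 2 sites with most reads of a gene formed a pair, and 4553 pairs passed the limits of 25 to 10000 nt between sites, a mean of 10 reads per library and 5% of reads at the rarer site. The distal site is the one further along the gene's strand. Whether the 2 sites lie in the same exon was not read here, so a pair may differ in more than the length of its 3′ end. In the unpaired fit 3 pairs changed, all toward the distal site in polysomes (0.0659%), and 348 had an unadjusted p under 0.05. The paired fit called 135 (2.97%), of which 101 moved toward the distal site in polysomes (2.22%) and 34 toward the proximal (0.747%). DESeq2 called 18 and 4, and the fit of the 4 libraries alone 8 and 2. Without polysome library 1 or 2 the unpaired fit called 1, and without either monosome library 0.

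Positions of the named pairs are on mm9, as deposited. Vapb, a tail-anchored ER protein that tethers lipid transfer proteins, has sites at 173603825 and 173609840 on the plus strand of chromosome 2. The distal site had 15.0% of 420 reads and 16.9% of 326 reads in polysomes, and 0 of 120 and 0 of 114 reads in monosomes, which allows shares of up to 2.50% and 2.63% (edgeR adjusted p = 0.00513). Osgep, a tRNA-modifying enzyme, has sites at 51543072 and 51535357 on the minus strand of chromosome 14. Its distal site held 99.9% and 99.7% of reads in polysomes and 90.0% and 93.1% in monosomes, a change of the log2 odds of 5.17 (SE 0.86, edgeR adjusted p = 0.0160). Bap1, a nuclear deubiquitinase, has sites at 32066528 and 32073113 on the plus strand of chromosome 14. Its distal share was 88.4% and 85.0% in polysomes and 54.1% and 34.6% in monosomes (3.04, SE 0.55, edgeR adjusted p = 0.0328). In all 3 the sites lie over 6 kb apart, and groups without overlap were a condition for naming them.

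Among pairs called in the paired and not the unpaired edgeR fit, Gsk3b, a kinase of Wnt and insulin signalling, moved toward the proximal site. Its distal share was 40.6% and 24.0% in polysomes and 89.9% and 62.9% in monosomes (-3.11, SE 0.81, edgeR adjusted p = 0.197; 2.74e-09 paired). Calm3, a calmodulin gene with sites 95 nt apart, had 68.5% and 71.6% against 89.8% and 87.2% (-1.73, SE 0.40, edgeR adjusted p = 0.144; 4.08e-05 paired). Foxp4, a forkhead factor, had 56.9% and 71.3% against 86.6% and 89.2% (1.08e-03 paired). Toward the distal site, Gemin4, a protein of the SMN complex, had 96.0% and 98.7% against 70.0% and 66.7%, from 21 to 99 reads a library (7.52e-05 paired). Eif4a2 had 16.7% and 61.2% against 4.32% and 3.39% (4.20e-06 paired), so that the polysome values differ more from each other than the monosome values do. Its summed level was also lower in polysomes, as given above, with 42 and 49 reads of the pair there.

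Pairs with sites farther apart leaned more to the distal site. The median change of log2 odds was -0.02 for 1180 pairs with sites under 200 nt apart, 0.12 for 796 pairs from 200 to 500 nt, and 0.32 for 955 pairs from 2000 to 10000 nt. In the closest class the paired fit called 5 pairs distal and 12 proximal, and in the widest 35 and 8. The median distance was 1509 nt for the 101 distal calls, 614.5 nt for the 34 proximal calls and 677 nt for all pairs. Restricted to sites at most 2000 nt apart, the unpaired fit called 0 pairs, with 251 at an unadjusted p under 0.05. Per library, the median log2 of distal to proximal reads was 0.415 and 0.585 in polysomes and 0.241 and 0.322 in monosomes. The groups did not overlap, and their means differed by 0.219, with a two-sided exact permutation p of 0.333, the smallest that 2 against 2 libraries allow. The difference was 0.134 without polysome library 2, 0.303 without polysome library 1, and 0.142 with 5 reads added to each count in place of 1.

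The change of site use was also compared between states. Unpaired, 0 pairs differed between differentiating and proliferating cytosol, with 169 at an unadjusted p under 0.05, and the paired fit called 1 of 4553 (0.022%). That pair is Cbx5, which encodes heterochromatin protein HP1 alpha, with sites 7919 nt apart on the minus strand of chromosome 15. In differentiating cytosol its distal share was 76.8% and 85.7% in polysomes and 40.0% and 64.4% in monosomes, a change of 2.10 (SE 0.59, edgeR adjusted p = 0.240; 9.57e-08 paired), and the paired difference between states was 2.22 (edgeR adjusted p = 0.00615).

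**Figure D5:**
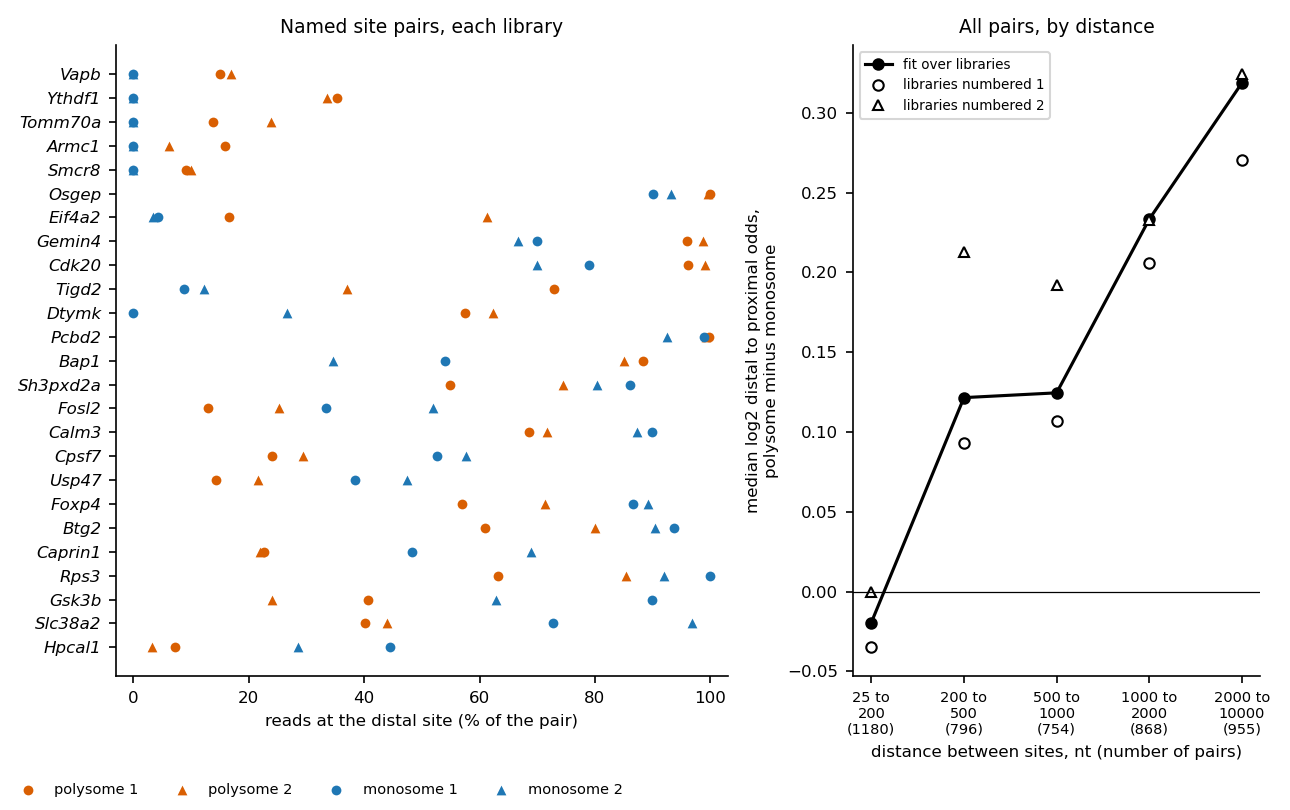
Left, share of a pair's reads at the distal site in each of the 4 libraries for the named pairs, in % of reads. Right, median change of the log2 distal to proximal odds, polysome minus monosome, for pairs grouped by the distance between sites, which runs from -0.02 to 0.32 in the fit, with the values of each numbered pair of libraries as open symbols.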

How the data were processed

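The deposited table gives whole-number read counts per poly(A) site in 26 libraries; per the submitters' processing notes cutadapt, Bowtie2, STAR 2.5.2 and the mm9 build were used, with the roles of the tools not given in the sources used here. Of its 125369 sites, 651 positions listed under more than 1 symbol were left out (0.506% of the 4 libraries' reads), and 24 symbols turned into dates were kept as listed. Counts were summed per symbol, filtered with filterByExpr, scaled with TMM and tested with edgeR 4.0.16 (R 4.3.3) over the 16 gradient libraries, with 1 mean per group; SE is the log2 value divided by the square root of the F statistic. Site pairs were fitted with a term per library and site by group. DESeq2 1.42.0 was an alternative. Replicate numbers were taken to pair the libraries because all 28 pairs of groups had correlated deviations of same-numbered libraries over 6633 genes (0.18 to 0.82; 0.67 for cytosolic polysomes and monosomes). In simulated counts the unpaired fit recovered 2.06% of genes changed by a log2 of 1 and 43.7% of those changed by 2. For site pairs the shares were 0% and 11.0%. Among the calls, 2.08% of genes and 9.09% of pairs were false. Members, lists and tests were chosen with earlier results of these data known. Named genes are, per list, up to 5 with the highest mean CPM and 3 with the lowest p, and over all genes up to 15 rises and 15 falls of greatest size among called genes of at least 10 CPM whose groups do not overlap. For differences they are up to 8 called genes of at least 10 CPM in each direction, or those of lowest p where 0 were called, and for pairs up to 12 called pairs with a mean of at least 50 reads and no overlap. Some genes were named after their values were seen (Neat1, Xist, Rpl27a, Rpl36al, Tnni1, Myh3, Ttn, Neb, Myod1, Tnnc1 and Tecpr2 between states, Cbx5, and the called members Araf, Ywhaq, Eif5a and Jph2). Start regions came from RefSeq (GRCm38.p6); no genome of the files' build was used here. Intervals and upper limits cover counting error only, with the limit of a count of 0 set at 3 reads. Some genes that the naming rule picks are not reported here.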

Additional observations from a re-analysis of the deposited data

Results flagged for a closer look

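The polysome to monosome ratio of 458 genes differed between the membrane and the cytosol of differentiating cells by the test of the difference itself, 406 of them higher in the membrane. In the paired fit the cytosolic ratio of 70 genes differed between differentiating and proliferating cells, and 1 site pair, that of Cbx5, differed in its change of site use between these states; unpaired, neither comparison called any (0 and 0, with 367 and 169 at an unadjusted p under 0.05).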

How the results depend on the processing

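Of 1546 values recomputed under other settings, 1342 kept their direction and side of the threshold, 109 lost a call, 41 gained one, 38 moved and 16 changed sign. With the replicate block the counts were 5142 genes, 70 for the states, 2126 for the fractions, 135 site pairs and 1 pair between states, and it ended the call of 0 of the 86 named gene values; beside those given in the report it changed no other call of a named result. With the 4 libraries alone, 1389 genes and 10 pairs were called. The DESeq2 test called 786 genes for the fractions and 22 pairs, and 0 pairs were called at most 2 kb apart. Leaving out 1 library at a time gave 1493 to 1776 genes, 184 to 317 for the fractions and 0 to 1 pairs.

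The median of mitochondrial ribosomal proteins became -0.091 and that of respiratory chain subunits -0.080 with DESeq2 size factors; with library totals tubulins and actins had 0.21, iron genes 0.32 and Acta1 0.17. Without polysome library 1, Tnnc1 had -1.02 (-0.20 between states), Mylpf -0.34, Tnni1 -0.14 and Aldoa -0.12. Without polysome library 2, Acta1 had 0.83 and Myog 0.15. Without monosome library 1, Acta1 had 1.43, Ttn 0.61 and Myog 1.45, and without monosome library 2 Atf4 had -0.11. The opposite ends of these ranges were 3.48 for Tnnc1 (4.30 between states), 2.96 for Mylpf, 3.60 for Tnni1, -2.28 for Acta1, -3.38 for Ttn, -1.99 for Myog and 0.63 for Aldoa. The cause was not tested, and none of these genes passed the unpaired test. The median ratio by protein length was not run, since no protein table was used here. With 2 libraries a group and 2987706 to 5907773 reads each, a gene with no read in a library is limited to 0.499 to 1.36 CPM after scaling.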
